A study of Mus musculus with 9 samples.

Results

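Transcripts of 8 genes that mark border-associated macrophages were followed in microglia sorted from the mouse brain. The genes were Mrc1, Cd163, Stab1, Lyve1, Folr2, Ms4a7, F13a1 and Pf4, which were picked by symbol from the 23238 gene symbols in the count tables. Each symbol had a single entry. Cbr2, another gene of these cells, was kept out of the set because lung RNA carries it too, and it is given separately.

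Border-associated macrophages live at the edges of the brain, in the meninges, around blood vessels and in the choroid plexus. They take up proteins, lipids and cell debris from blood and cerebrospinal fluid through scavenger and lectin receptors, and several of the 8 genes encode such receptors. They share CD45 and CD11b with microglia but carry little P2ry12, so a sort for P2ry12 should leave most of them out. Some of these genes are also used by other cells, for example Pf4 by platelets, Lyve1 by lymphatic endothelium, Stab1 by sinusoidal endothelium and F13a1 by monocytes and platelets.

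The cells were positive for CD45, CD11b and P2ry12 and came from wild-type female C57BL/6N mice of 12 weeks. They were taken on day 1, which in the injected groups is 1 day after the injection into the brain. There were 3 libraries in each of 3 groups, and each library held the pooled cells of 3 mice. Normal mice received no treatment. NMO mice, a model of neuromyelitis optica, received patient IgG against aquaporin-4 (NMO-IgG) and human complement by injection into the striatum on 1 side of the brain. NMO+CL mice received the same injection after an intraperitoneal dose of clodronate liposomes, which deplete circulating monocytes and phagocytic macrophages. No control IgG group and no group with empty liposomes was analysed here, so the injection, the antibody and the complement cannot be told apart in NMO, nor can clodronate and the liposomes in NMO+CL. In such bulk samples fewer cells of a type and less RNA per cell cannot be told apart either.

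The libraries held 5788234 to 7837219 counts, of which the ribosomal RNA entry Rn45s took at most 31.0%. Levels are given in CPM, counts relative to the scaled library size, with the standard deviation between libraries. At this depth a count of 0 allows up to 3 counts, or 0.359 to 0.505 CPM depending on the library. Microglia genes were abundant, and 10 of them summed to 34170 to 38815 CPM in Normal, 29414 to 34234 in NMO and 19906 to 27559 in NMO+CL. P2ry12, the receptor of the sort, fell by 2.22 on the log2 scale in NMO+CL against NMO (edgeR quasi-likelihood test, Benjamini-Hochberg adjusted p = 1.73e-05). Siglech, Gpr34 and Olfml3 were also called lower there, and Sall1, Cx3cr1 and Fcrls besides these in NMO+CL against Normal, while Siglech alone of the 10 was called lower in NMO against Normal. Of 16 alternative settings, 6 called Olfml3 in NMO+CL against NMO, 9 called Cx3cr1, 13 Fcrls and 14 Sall1 in NMO+CL against Normal, and 10 called Siglech in NMO against Normal, while the calls of P2ry12 and Gpr34 held in all 16. Scaling by library totals alone ended the calls of Olfml3, Cx3cr1 and Siglech in those comparisons, as did leaving out some single libraries (adjusted p up to 0.234, 0.162 and 0.1495). Libraries also held lung transcripts at a summed 788 to 1939 CPM over 10 genes, except NMO replicate 2 with 5.15 CPM and 8 of the 10 genes at 0. For this reason the NMO means of the tested members are given with and without NMO replicate 2.

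The marker set was thinly covered apart from Stab1 and, at a lower level, Mrc1. Stab1, Mrc1 and F13a1 had counts in all 9 libraries, Lyve1 in 7, Pf4 in 6, Ms4a7 in 4, and Cd163 and Folr2 in 2. Summed over the 9 libraries there were 13041 counts for Stab1, 821 for Mrc1, 336 for Lyve1, 252 for F13a1, 159 for Pf4, 48 for Ms4a7, 19 for Cd163 and 9 for Folr2. In each library Stab1 had 876 to 2362 counts and the other 7 genes together 83 to 284, so a sum over the 8 genes is mostly a measure of Stab1.

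**Figure D1:**
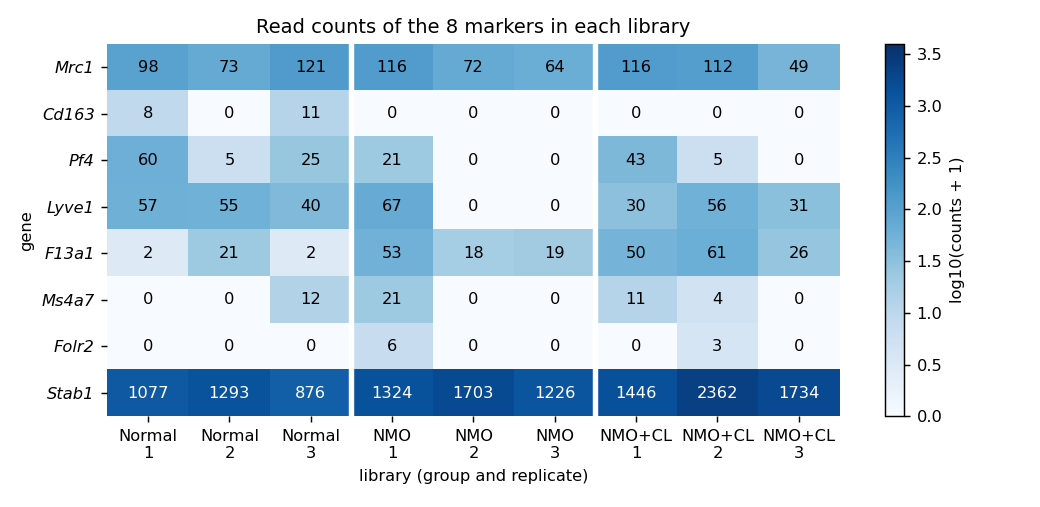
Read counts of the 8 marker genes (rows) in the 9 libraries (columns), with the count printed in each cell and the colour on a log10 scale of the count plus 1. Cd163, Pf4, Lyve1, Ms4a7 and Folr2 were all at 0 in NMO replicates 2 and 3, whereas Stab1 had 876 to 2362 counts in every library.

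Of the 8 genes, 6 had enough counts to be tested, and Cd163 and Folr2 did not. By the edgeR quasi-likelihood test, 0 of the 6 were called higher in NMO against Normal and 0 lower, at a Benjamini-Hochberg adjusted p under 0.05, beside 0.472% and 0.0244% of all 12292 tested genes. NMO+CL against NMO gave 0 higher and 0 lower, beside 0.529% and 1.07% of all genes. In NMO+CL against Normal 1 of the 6, Stab1, was called higher and 0 were lower, beside 4.79% and 4.43% of all genes. An unadjusted p under 0.05 was found for 0 of the 6 in the first comparison, for 1 (Stab1) in the second and for 2 (Stab1 and F13a1) in the third. Limma-voom called 0, 0 and 1 of the 6. The DESeq2 Wald test also called 0, 0 and 1, but gave no adjusted p for Lyve1 in any comparison or for Ms4a7 in NMO+CL against NMO. The median log2 fold changes of the 6 genes were -0.17, 0.73 and 0.02 in these 3 comparisons, beside -0.01 in each for all tested genes. The 3 comparisons share libraries, since each group enters a pair of them.

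Stab1 encodes stabilin-1, a scavenger receptor that takes up modified lipoproteins, the matrix protein SPARC and the chitinase-like protein that Chid1 encodes. It lies on chromosome 14 (31139013 to 31168641, minus strand, GRCm38). The Normal libraries had 172, 195 and 147 CPM, the NMO libraries 166, 204 and 196, and the NMO+CL libraries 211, 383 and 278. Every NMO+CL library stood above every library of the other groups, while NMO and Normal overlapped. The means were 171 ± 23.6 CPM for Normal, 189 ± 19.8 for NMO and 290 ± 86.5 for NMO+CL (SD, n = 3). Stab1 rose in NMO+CL against Normal, with a log2 fold change of 0.76 (standard error 0.22, 95% interval 0.30 to 1.22, edgeR quasi-likelihood adjusted p = 0.0360). Against NMO its log2 fold change was 0.62 (95% interval 0.16 to 1.08, unadjusted p = 0.0113, adjusted p = 0.204) and was not called. NMO and Normal differed by 0.14 on the log2 scale (95% interval -0.32 to 0.60, adjusted p = 0.947). Among all tested genes, 13.8% were higher in every NMO+CL library than in any Normal library, and 7.89% were higher in every NMO+CL library than in any NMO library.

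The Stab1 call did not hold in every fit without 1 library. It was lost without Normal replicate 1 (adjusted p = 0.1003), without the second (0.0637) or the third (0.161), where the log2 fold changes were 0.77, 0.86 and 0.67. The call was also lost without NMO+CL replicate 2, the library with the most Stab1, where the log2 fold change was 0.51 (adjusted p = 0.239). Over all genes the calls fell from 1134 to 735, 756, 649 and 649 in these fits. Stab1 was called in the other 12 of 16 alternative settings, and its log2 fold change stayed between 0.51 and 0.95 in all 16. Without NMO replicate 2 the NMO mean was 181 CPM.

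The annotated 3′ end of Stab1 runs into that of Nt5dc2 on the opposite strand, and the sources used here do not say whether counting used strand. The exons of both genes share 112 bases (chromosome 14, 31139013 to 31139124), and QuantSeq reads come from the 3′ ends of transcripts. Nt5dc2 had 950, 1000 and 715 counts in the Normal libraries, 1022, 1497 and 629 in NMO, and 1079, 1952 and 1632 in NMO+CL. Both genes were highest in NMO+CL replicate 2, and there were 1.06 to 1.95 Stab1 counts for each Nt5dc2 count. For Nt5dc2 the log2 fold change was -0.05 in NMO against Normal, 0.85 when NMO+CL was set against NMO (adjusted p = 0.127) and 0.80 when it was set against Normal (adjusted p = 0.0618). Over the 9 libraries its log2 CPM had a Pearson correlation of 0.88 with that of Stab1, rank 21 among 12291 genes, a description over points that share the groups. How many reads of this overlap stand in the Stab1 counts was not tested.

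Mrc1, the mannose receptor CD206, binds glycans on pathogens and on the body's own glycoproteins and is a classical marker of perivascular macrophages. It lies on chromosome 2 (14229392 to 14332057, plus strand). Its level was 15.6, 10.99 and 20.4 CPM in the Normal libraries, 14.6, 8.62 and 10.2 in NMO, and 16.9, 18.1 and 7.85 in NMO+CL. The lowest and the highest library belonged to NMO+CL and Normal, and the ranges of all groups overlapped. By group mean the order was Normal (15.7 ± 4.69 CPM), NMO+CL (14.3 ± 5.63) and NMO (11.1 ± 3.08), and no neighbours in that order differed beyond their spread. Log2 fold changes were -0.49 in NMO against Normal (95% interval -1.50 to 0.52, adjusted p = 0.876) and 0.36 in NMO+CL against NMO (-0.65 to 1.37, adjusted p = 0.845). NMO+CL against Normal gave -0.13 (-1.14 to 0.88, adjusted p = 0.934). Each interval reaches at least 0.52 to either side of 0 on the log2 scale, so a moderate rise or fall was not detectable. Without NMO replicate 2 the NMO mean was 12.4 CPM.

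Lyve1 encodes a hyaluronan receptor of lymphatic endothelium that also marks a class of perivascular and leptomeningeal macrophages. It lies on chromosome 7 (110850607 to 110863239, minus strand). There were 57, 55 and 40 counts in the Normal libraries, beside 30, 56 and 31 with clodronate. In NMO, replicate 1 had 67 counts, the most of any library, and replicates 2 and 3 had 0. The other 8 libraries thus split into 6 with 30 to 57 counts and the pair at 0. Mean levels were 8.03 ± 1.196 CPM for Normal, 2.81 ± 4.86 for NMO and 6.14 ± 2.56 for NMO+CL (SD, n = 3). Lyve1 was not called in NMO against Normal (log2 fold change -1.50, 95% interval -4.16 to 1.16, adjusted p = 0.825) or in NMO+CL against NMO (1.11, -1.53 to 3.76, adjusted p = 0.804). NMO+CL against Normal gave -0.39 (adjusted p = 0.922).

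A single library decided those Lyve1 results. Without NMO replicate 1 the gene was called lower in NMO than in Normal (adjusted p = 0.0485) and higher in NMO+CL than in NMO (adjusted p = 0.0341), and the size of a fold against a pair of libraries at 0 depends on the prior count of the model. Without NMO replicate 2 the NMO mean was 4.21 CPM. Of the club cell gene Scgb1a1, a lung transcript, NMO replicate 2 had 0 counts and NMO replicate 3 had 4889, and the part of lung RNA in the Lyve1 levels was not tested. Markers of endothelium summed to 87.2 to 123 CPM in Normal, 59.0 to 105 in NMO and 92.8 to 139 in NMO+CL, and the part of such cells in the Lyve1 levels was not tested.

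**Figure D2:**
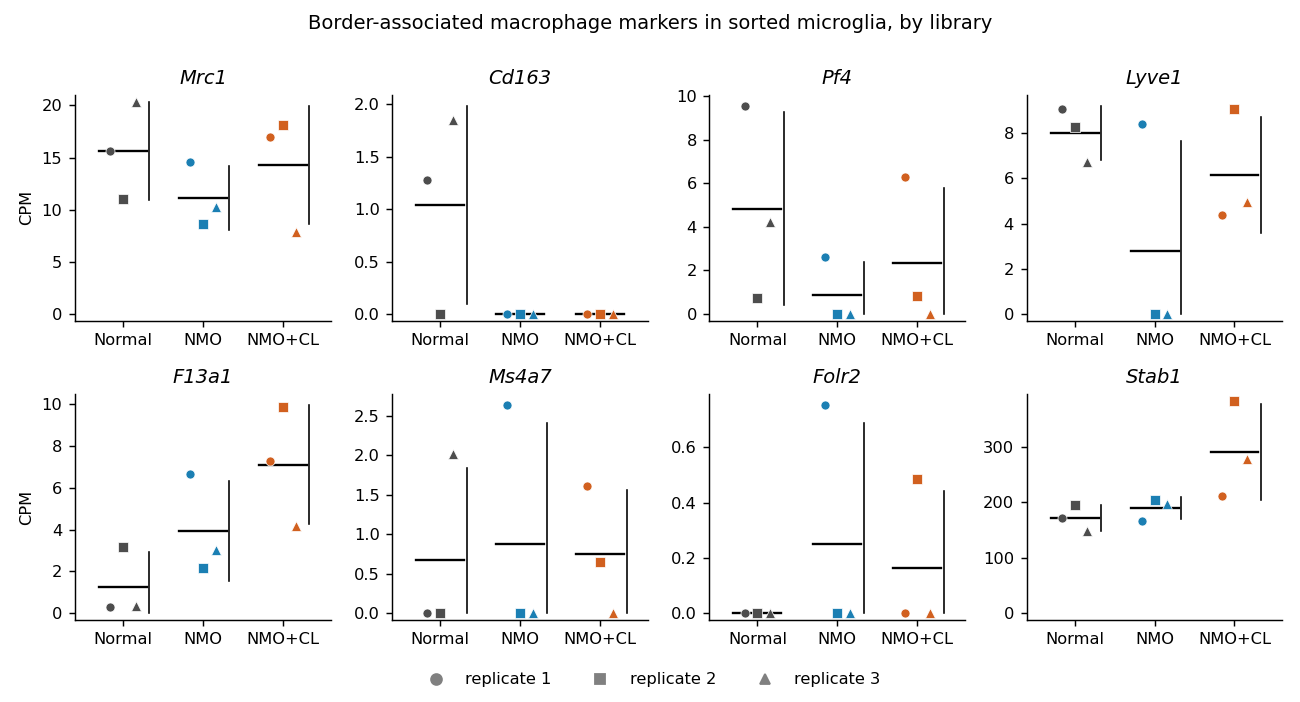
CPM (y axis) of each marker gene in the 9 libraries by group (x axis), with circles, squares and triangles for replicates 1, 2 and 3, horizontal lines for group means and vertical lines for 1 standard deviation either side, cut at 0. Stab1 is highest in the 3 NMO+CL libraries (211 to 383 CPM), F13a1 has its lowest mean in Normal (1.27 CPM), and Lyve1 in NMO is split between 8.42 and 0 CPM.

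Cd163, the scavenger receptor for haemoglobin bound to haptoglobin, lies on chromosome 6 (124304656 to 124330527, plus strand). It had 8, 0 and 11 counts in the Normal libraries and 0 in all 6 injected libraries. The groups still overlapped, because Normal replicate 2 was at 0 as well. Mean CPM was 1.04 ± 0.947 in Normal, and the difference from NMO or from NMO+CL had an exact two-sided permutation p of 0.4, where 3 against 3 libraries cannot go below 0.1. The last 500 bases of its transcripts share stretches of up to 77 bases with 12 other genes, so with multiply aligned reads counted its low counts are uncertain.

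Folr2 encodes folate receptor beta, a marker of resident tissue macrophages, and lies on chromosome 7 (101839988 to 101857194, minus strand). It had 6 counts in NMO replicate 1, 3 in NMO+CL replicate 2 and 0 in the other 7 libraries. The NMO mean was 0.251 CPM, and 0.377 CPM without NMO replicate 2. No group difference was detectable at this depth (exact permutation p = 1.0 in each comparison). Its 3′ end lies within Gm10602 on the opposite strand over 481 bases.

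Ms4a7 encodes a membrane protein of the MS4A family and separates border-associated macrophages and macrophages of blood origin from microglia. It lies on chromosome 19 (11321039 to 11336146, minus strand). Counts were 0, 0 and 12 in Normal, 21, 0 and 0 in NMO, and 11, 4 and 0 in NMO+CL. Each group held at least 1 library at 0 and at least 1 with 11 or more counts. Group means were 0.673 ± 1.17, 0.880 ± 1.52 and 0.751 ± 0.807 CPM, and the log2 fold change was 0.39 for NMO against Normal (adjusted p = 0.990), -0.23 when NMO+CL was set against NMO (0.990) and 0.17 when it was set against Normal (0.984). All 3 estimates changed sign in some alternative settings and carry no direction. The NMO mean was 1.32 CPM without NMO replicate 2.

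F13a1 and Pf4 encode secreted proteins. F13a1, the A subunit of coagulation factor XIII, cross-links fibrin and is made by tissue macrophages and monocytes. It lies on chromosome 13 (36867178 to 37050244, minus strand). Its counts were 2, 21 and 2 in Normal, 53, 18 and 19 in NMO, and 50, 61 and 26 in NMO+CL. All 3 NMO+CL libraries were above all Normal libraries, as in 13.8% of all tested genes, and NMO overlapped both groups. Mean levels were 1.27 ± 1.64 CPM for Normal, 3.95 ± 2.39 for NMO and 7.11 ± 2.86 for NMO+CL. F13a1 was not called in NMO+CL against Normal (log2 fold change 2.46, 95% interval 0.06 to 4.86, unadjusted p = 0.0454, adjusted p = 0.212), nor in any of 16 alternative settings. Log2 fold changes were 1.62 in NMO against Normal (adjusted p = 0.737) and 0.84 in NMO+CL against NMO (adjusted p = 0.835). Without NMO replicate 2 the NMO mean was 4.85 CPM.

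Monocytes, which also make F13a1, were followed by 10 markers. These summed to 32.1 to 83.3 CPM in Normal, 71.7 to 153 in NMO and 75.9 to 146 in NMO+CL, and none was at 0 in all libraries of a group. Of the 10, Fn1, which encodes fibronectin, was called higher in NMO+CL against Normal (log2 fold change 2.45, adjusted p = 0.0218) and no other was called in any comparison. The Fn1 call held in 12 of 16 alternative settings and was lost without Normal replicate 1 or 3 or NMO+CL replicate 1 or 2 (adjusted p up to 0.0876). The median log2 fold change of the 10 was 0.94 in NMO against Normal, with 9 above 0, then -0.22 with 4 above 0 for NMO+CL against NMO, and 1.13 with 7 above 0 for NMO+CL against Normal, beside -0.01 over all tested genes in each. Ly6c2, the antigen of inflammatory monocytes, had 30, 0 and 2 counts in Normal, 44, 20 and 35 in NMO, and 35, 15 and 24 in NMO+CL. Ccr2, the chemokine receptor of these cells, had 110, 24 and 113 counts in Normal, 156, 56 and 122 in NMO, and 59, 11 and 40 in NMO+CL. Both genes overlapped between all groups. The part of monocytes in the F13a1 counts was not tested.

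Pf4, platelet factor 4 or CXCL4, is a chemokine of platelets and of border-associated macrophages. It lies on chromosome 5 (90772435 to 90773383, plus strand). Its counts were 60, 5 and 25 in Normal, 21, 0 and 0 in NMO, and 43, 5 and 0 in NMO+CL. Replicate 1 was the highest library of each group, and all groups overlapped. Mean levels were 4.84 ± 4.44, 0.880 ± 1.52 and 2.36 ± 3.41 CPM, with a standard deviation above the mean in NMO and NMO+CL. Leaving out NMO replicate 2 gave an NMO mean of 1.32 CPM. The log2 fold changes were -2.42 in NMO against Normal (95% interval -6.39 to 1.54, adjusted p = 0.788), 1.40 when NMO+CL was set against NMO (-2.46 to 5.26, adjusted p = 0.841) and -1.03 when it was set against Normal (-4.82 to 2.77, adjusted p = 0.836). The platelet markers, 7 genes, summed to 44.4 to 59.9 CPM in Normal, 26.9 to 40.5 in NMO and 17.8 to 27.1 in NMO+CL. Among them Gp9, part of the receptor for von Willebrand factor, was called lower in NMO+CL against Normal (log2 fold change -2.31, adjusted p = 0.00298), and the other 3 tested, Gp1bb (1.39), Gp1ba (-0.10) and Treml1 (-0.94), were not called. Ppbp, Itga2b and Tubb1 were at 0 in all 3 NMO libraries, in 2, 1 and 2 of the Normal libraries and in 2, 2 and 3 of the NMO+CL libraries. The part of platelets in the Pf4 counts was not tested.

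**Figure D3:**
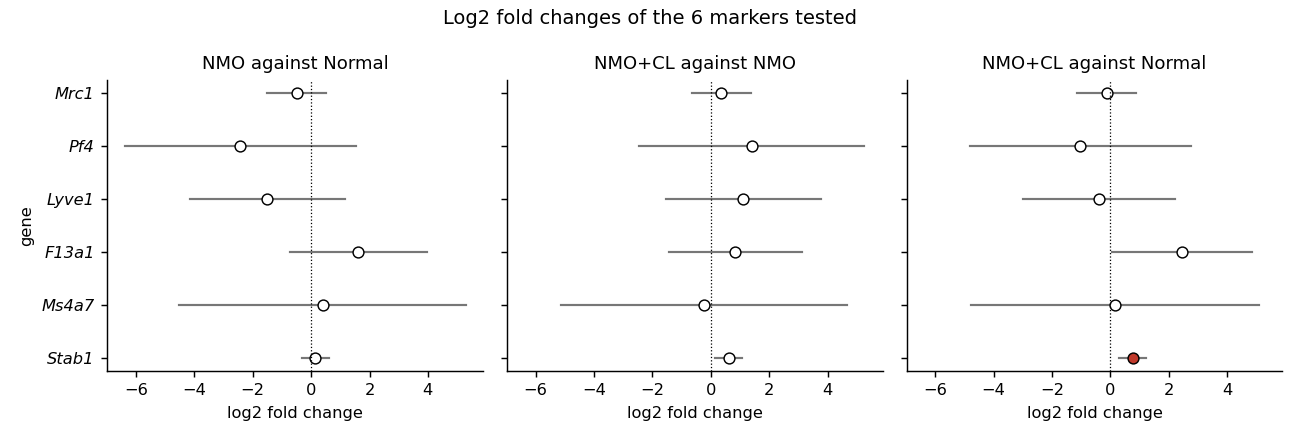
Log2 fold changes (x axis) of the 6 tested marker genes (y axis) in the 3 comparisons, with lines for 95% intervals and a filled point for an adjusted p under 0.05. Stab1 in NMO+CL against Normal (0.76) is the only filled point, and the intervals of Pf4 and Ms4a7 span several log2 units.

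The members did not form a single pattern across libraries. Apart from Stab1, the other 7 genes summed to 35.9, 23.2 and 35.5 CPM in Normal, 35.7, 10.8 and 13.3 in NMO, and 36.5, 39.0 and 17.0 in NMO+CL. NMO replicates 2 and 3 were the lowest, with 5 of the 8 genes at 0 in each, and NMO+CL replicate 3 came next with 4 at 0. NMO replicate 1 lay among the Normal libraries. After removal of group means, the log2 CPM of Mrc1 correlated over the 9 libraries with Pf4 (r = 0.76) and Ms4a7 (r = 0.81), and Pf4 with Ms4a7 (r = 0.70), while Stab1 had r = -0.26 with Mrc1 and -0.62 with Pf4. These values describe 9 libraries in 3 groups and include counts of 0.

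The tested genes most like each member were named by their correlation of log2 CPM over the same 9 libraries. They were Lrpap1 (0.96), Ydjc (0.94) and Calr (0.93) for Stab1, and Zfp518a (0.94), Arhgap10 (0.92) and Adm (0.91) for Mrc1. Nearest to Lyve1 were Tns2 (0.96), Igfbp5 (0.95) and Zfp629 (0.95), and nearest to F13a1 were Usp30 (0.97), 2010204K13Rik (0.97) and Slc13a3 (0.95). For Pf4 they were Atp6v0e2 (0.94), Ube2m (0.93) and Gm5464 (0.91), and for Ms4a7 Tcea1 (0.91), Ano1 (0.89) and Tfcp2l1 (0.89). None of these 18 genes is itself a member.

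Other genes linked to border-associated macrophages included several that rose or fell. Of 20 listed, 19 were in the tables, 13 were tested, and Ms4a4a was not analysed here. NMO against Normal gave 1 gene higher and 0 lower, beside 0.472% and 0.0244% of all tested genes. NMO+CL against NMO gave 2 and 1, beside 0.529% and 1.07%, and NMO+CL against Normal gave 4 and 2, beside 4.79% and 4.43%. The median log2 fold changes were -0.02, 0.30 and 0.54, beside -0.01 in each comparison for all tested genes. Fcna was at 0 in all libraries. Several of the genes that moved, such as Apoe, Maf and Hpgd, are also used by microglia.

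Dab2, an adaptor for endocytosis of lipoprotein receptors, lies on chromosome 15 (6299788 to 6440712, plus strand). It had 151, 145 and 136 counts in Normal, 507, 707 and 231 in NMO, and 1182, 1085 and 706 in NMO+CL. The groups did not overlap when the levels were scaled to CPM, at 21.8 to 24.1 in Normal, 37.0 to 84.6 in NMO and 113 to 176 in NMO+CL. Of all tested genes, 13.8% had every NMO+CL library above every Normal library, and 7.89% had every NMO+CL library above every NMO library. Dab2 rose from Normal to NMO (log2 fold change 1.43, adjusted p = 0.0324) and from NMO to NMO+CL (1.31, adjusted p = 0.0249). The difference between NMO+CL and Normal was 2.75 (adjusted p = 2.46e-05). The last call held in 16 of 16 alternative settings, and the first in 9 and the second in 11. Those lost calls were mostly in fits without 1 library, and in the first comparison the adjusted p reached 0.154 without Normal replicate 2.

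Tgfbi, a matrix protein of macrophages, rose in NMO+CL against Normal (log2 fold change 1.13, adjusted p = 0.0248, called in 11 of 16 settings). Apoe, the lipid carrier of macrophages and glia, rose in the same comparison (0.93, adjusted p = 0.0225, 12 of 16). Maf, a transcription factor of resident macrophages, had 608 to 836 CPM in Normal, 519 to 593 in NMO and 307 to 348 in NMO+CL. It fell by 0.77 on the log2 scale in NMO+CL against NMO (adjusted p = 0.0295, 10 of 16) and by 1.12 against Normal (adjusted p = 5.20e-04, 16 of 16). Hpgd, which inactivates prostaglandins, fell by 1.65 in NMO+CL against Normal (adjusted p = 4.72e-04, 16 of 16).

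**Figure D4:**
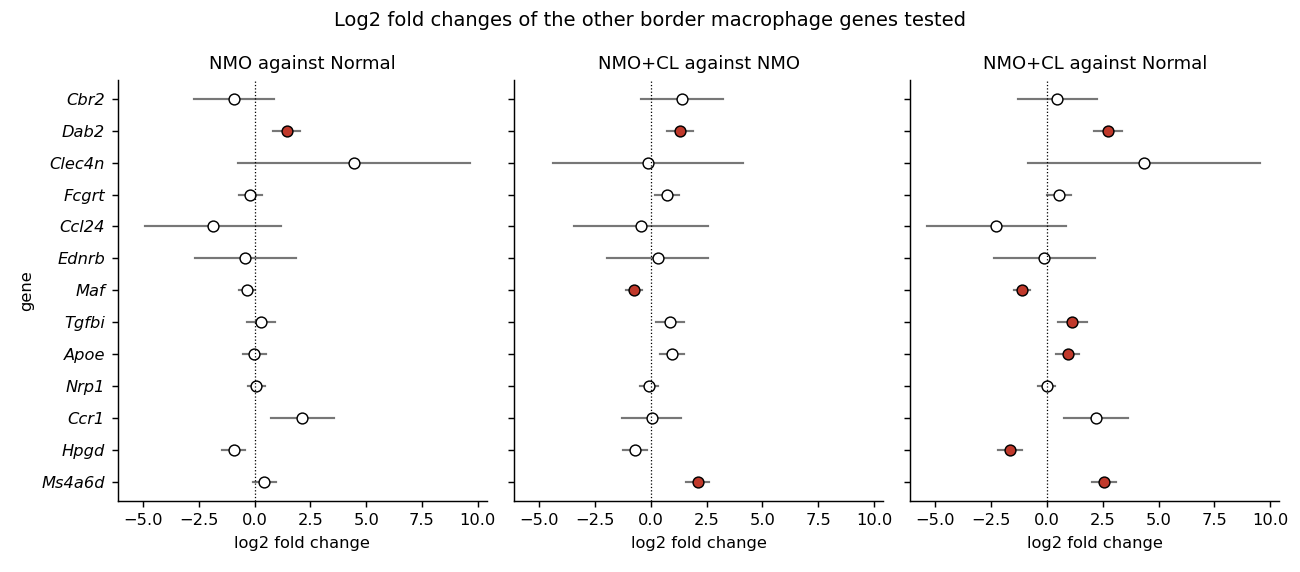
Log2 fold changes (x axis) of 13 other tested genes linked to border-associated macrophages (y axis) in the 3 comparisons, with lines for 95% intervals and filled points for an adjusted p under 0.05. Dab2 is filled in all 3 comparisons, Ms4a6d and Maf in both comparisons of NMO+CL, and Tgfbi, Apoe and Hpgd in NMO+CL against Normal alone.

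Of 5 tested relatives of Ms4a7 in the MS4A family, 3 rose in NMO+CL against both other groups. The family's genes lie in a cluster on chromosome 19 and encode membrane proteins of immune cells. Ms4a6c (11469366 to 11482192, plus strand) had 372, 379 and 419 counts in Normal, 612, 775 and 525 in NMO, and 5656, 6206 and 2230 in NMO+CL. It rose in NMO+CL against NMO (log2 fold change 3.11, adjusted p = 2.59e-05) and against Normal (3.55, adjusted p = 3.61e-06). Ms4a6d (11586604 to 11604849, minus strand) had 639, 669 and 531 counts in Normal, 871, 1395 and 744 in NMO, and 4399, 4347 and 2239 in NMO+CL. It also rose in both comparisons (2.11, adjusted p = 3.43e-04, and 2.55, adjusted p = 1.04e-05).

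Ms4a6b (11516512 to 11531256, plus strand) followed with log2 fold changes of 1.87 (adjusted p = 0.00178) and 1.77 (adjusted p = 3.50e-04). The lowest NMO+CL library of each of these 3 genes stood above the highest library of the other groups. Of all tested genes, 13.8% stood so against Normal and 7.89% against NMO. The 6 calls held in 16 of 16 alternative settings. In NMO against Normal they had log2 fold changes of 0.44, 0.44 and -0.11 and none was called. The other two tested, Ms4a4b (0.85 and 1.81 in the same comparisons, adjusted p = 0.927 and 0.696) and Ms4a4c (1.29 and 2.79, adjusted p = 0.780 and 0.260), were not called. Ms4a7 itself had at most 21 counts in a library and was not called either. BE692007 covers the last 500 bases of Ms4a6c on the opposite strand, so with the use of strand not given its counts are uncertain.

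Ligands, partners and paralogs of the members made a list of 27 genes, of which 21 were tested. NMO against Normal gave 0 genes higher and 0 lower, beside 0.472% and 0.0244% of all tested genes. NMO+CL against NMO gave 2 and 0, beside 0.529% and 1.07%, and NMO+CL against Normal gave 5 and 1, beside 4.79% and 4.43%. Ms4a6b and Ms4a6c were among the genes called higher. The median log2 fold changes were 0.19, 0.66 and 1.01, beside -0.01 in each comparison for all tested genes. Sparc, whose protein is a ligand of stabilin-1, had 3418 to 3967 CPM in Normal, 2328 to 2757 in NMO and 1578 to 2247 in NMO+CL and fell in NMO+CL against Normal by 1.02 on the log2 scale (adjusted p = 6.08e-04, 16 of 16 settings). Chid1, whose protein is carried by stabilin-1, rose (log2 fold change 1.03, adjusted p = 0.0257, 12 of 16), although in NMO replicate 3 it was higher than in any NMO+CL library.

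Tgm2, a transglutaminase related to factor XIII, rose in NMO+CL against Normal (1.01, adjusted p = 0.00847, 14 of 16), as did the folate carrier Slc19a1 (1.75, adjusted p = 0.0233, 11 of 16). Hmox1, which breaks down the haem that Cd163 brings into the cell, had a log2 fold change of 1.32 (adjusted p = 0.315) and was not called. Mrc2, the closest relative of Mrc1, had -1.48 (adjusted p = 0.170). Stab2 had 14 counts over the Normal libraries, 12 of them in 1 library, none in NMO libraries and 2 over those of NMO+CL.

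Antigen presentation by MHC class II, by which some border-associated macrophages are divided from others, gave 0 calls among 6 tested genes in all 3 comparisons by the edgeR quasi-likelihood test, with 0, 2 and 2 genes at an unadjusted p under 0.05. H2-Aa had 314, 116 and 243 counts in Normal, 416, 160 and 366 in NMO, and 143, 37 and 61 in NMO+CL. Its log2 fold change in NMO+CL against NMO was -1.82 (adjusted p = 0.0896). H2-Eb1 had -1.69 in NMO+CL against Normal (adjusted p = 0.0557). These genes were chosen after their values were seen. The most abundant of the list, H2-DMa and H2-DMb1, which load peptides onto class II, had log2 fold changes of 0.26 (adjusted p = 0.761) and 0.45 (adjusted p = 0.514) in NMO+CL against NMO. Against Normal they had -0.06 and 0.15. The DESeq2 Wald test called H2-Aa in NMO+CL against NMO (adjusted p = 0.0250) and both H2-Aa (0.0317) and H2-Eb1 (0.0281) in NMO+CL against Normal, and limma-voom called neither. The medians over the 6 genes were -0.03, -0.83 and -0.69 on the log2 scale, beside -0.01 in each comparison for all tested genes.

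Cbr2, the carbonyl reductase left out of the set, had 1708, 1344 and 741 counts in Normal, 1265, 0 and 971 in NMO, and 1270, 1522 and 2467 in NMO+CL. It was at 0 only in NMO replicate 2, which also had 0 counts of the surfactant gene Sftpc. In that library Stab1 had 1703 counts, Mrc1 72 and F13a1 18. The part of lung RNA in the counts of these 3 genes was not tested. Cbr2 was not called in NMO against Normal (log2 fold change -0.93, adjusted p = 0.862), NMO+CL against NMO (1.40, adjusted p = 0.552) or NMO+CL against Normal (0.46, adjusted p = 0.843). Without NMO replicate 2 the first 2 of these log2 fold changes were -0.35 (adjusted p = 0.817) and 0.81 (adjusted p = 0.289).

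**Figure D5:**
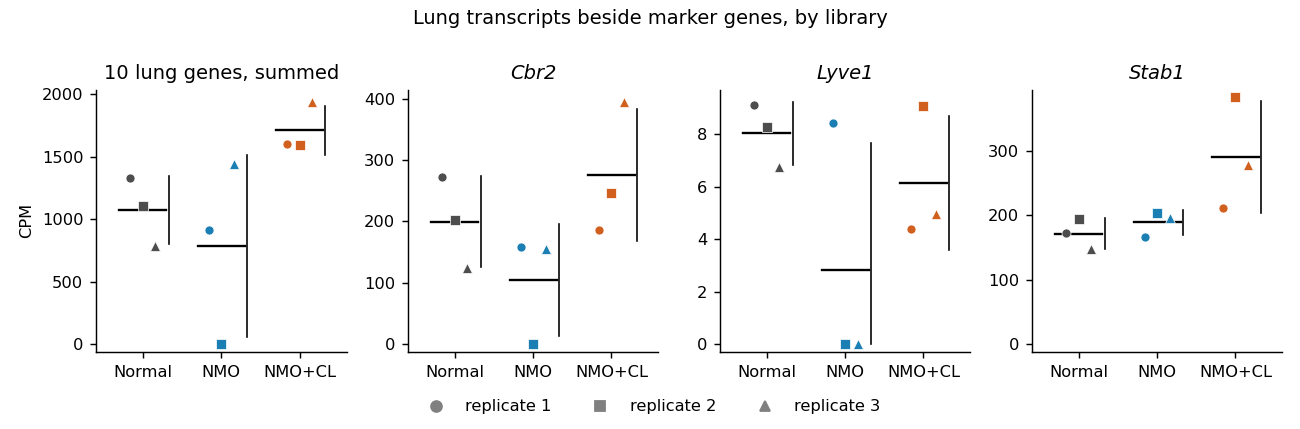
CPM (y axis) by group (x axis) of 10 lung genes summed, Cbr2, Lyve1 and Stab1 in the 9 libraries, with circles, squares and triangles for replicates 1, 2 and 3, horizontal lines for means and vertical lines for 1 standard deviation either side. In NMO replicate 2 the lung sum was 5.15 CPM and Cbr2 was 0, while Stab1 was 204 CPM; Lyve1 was at 0 there and in NMO replicate 3, which had 1442 CPM of the lung genes.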

How the data were processed

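Microglia RNA of 9 pools of mice was prepared with the QuantSeq 3′ kit, which reads the ends of polyadenylated transcripts. The authors aligned reads with Bowtie2 and counted unique and multiple alignments per gene with bedtools; per the labels the build was mm10, and the use of strand was not given in the sources used here. The deposited values are whole read counts per gene, with no normalization, in 23282 entries; 35 symbols on 79 entries were summed, none of them a member.

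The edgeR package (4.0.16, in R 4.3.3) was used for the tests. Its filterByExpr function (minimum count 10, minimum total 15) kept 12292 genes, and 1 quasi-likelihood model with TMM scaling and a mean for each group took in all 9 libraries. Two-sided p-values received the Benjamini-Hochberg adjustment over these genes, and a gene was called below 0.05. Biological variation between libraries was 0.519 as a common coefficient of variation. Members below the filter were compared by exact permutation (SciPy 1.17.1). Fits with DESeq2 1.42.0 and limma 3.58.1, other scalings and filters, and fits without each library were alternatives. Correlations used log2(CPM + 0.5). The fit was tested on simulated data. Overlaps and shared 3′ stretches of at least 50 bases at 95% identity came from GENCODE M21 and BLAST 2.17.0.

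The members, lists and tests were chosen with earlier results of these data known. Named were all members, the 3 tested genes most correlated with each tested member, and, of other lists, called genes, otherwise the 2 most abundant, and genes moving with a member in a library. Named after their values were seen were H2-Aa, H2-Eb1, Ly6c2, Ccr2, the platelet genes other than Gp9, Hmox1, Mrc2, Stab2, Ms4a4b, Ms4a4c, Nt5dc2, Fcna, Cd3e, Csf3r, Gfap and Aldh1l1. Total counts were 5788234 to 7837219 per library. Floors and intervals of counts cover counting error only. The study calls the 3 libraries of a group independent pools; libraries of a group differed by more than counting error (chi-square per degree of freedom 23.2 to 55.5). Same-numbered libraries of different groups did not deviate together (r from -0.016 to 0.030), and the numbers were not used as pairs.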

Additional observations from a re-analysis of the deposited data

How the results depend on the processing

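Leaving out each library in turn gave 0 to 1 called markers in each comparison: the 1 in NMO against Normal and in NMO+CL against NMO was Lyve1 without NMO replicate 1, and the 1 in NMO+CL against Normal, Stab1, became 0 without Normal replicate 1, 2 or 3 or NMO+CL replicate 2. With the replicate number as a block the called markers were 0, 0 and 1, as without it. The Ms4a7 log2 fold change turned to -1.03 under the block in NMO against Normal, and to 1.15 under the block and 0.96 with limma-voom in NMO+CL against NMO. Without single libraries Ms4a7 ran from -5.18 to 5.62, -1.40 to 5.35 and -1.01 to 5.404 in the 3 comparisons. Pf4 ran from -8.00 to -1.47, -1.09 to 6.98 and -3.52 to -0.06. Mrc1 ran from -0.33 to 0.17 in NMO+CL against Normal. F13a1 ran from 0.99 to 3.52 in NMO against Normal and from 2.01 to 4.37 in NMO+CL against Normal. Lyve1 ran from -8.73 to -0.92 in NMO against Normal and from 0.53 to 8.35 in NMO+CL against NMO. In these comparisons limma-voom gave Lyve1 -4.49 and 4.02, and the block -2.97 and 2.74. Over all genes 61, 196 and 1134 were called. DESeq2 called 222 and 465 in the first 2 comparisons, all genes with a count 223 and 496, only the 2 groups compared 34 and 73, and library totals alone 96 in the first. Without single libraries the counts ran from 20 to 75, 51 to 231 and 649 to 1263. Where they gave a value, the other settings kept the direction of each tested marker and its side of the threshold, apart from 4 fits in which DESeq2 gave no adjusted p (Lyve1 in all 3 comparisons, Ms4a7 in NMO+CL against NMO). With only the 2 groups compared, Ms4a7 had no value in any comparison, nor Pf4 in NMO+CL against NMO. Counts of 0 to 67 limit what could be detected for every marker but Stab1 and Mrc1.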

Other observations

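Sums of marker genes of other blood and brain cells differed in size in these sorted libraries, and which cells they came from was not tested. Neutrophil genes, 10 in all, summed to 100.7 to 594 CPM in Normal, 169 to 491 in NMO and 314 to 1419 in NMO+CL, and 0 of the 10 were called in any comparison by the edgeR quasi-likelihood test, with 0, 2 and 4 at an unadjusted p under 0.05 in NMO against Normal, NMO+CL against NMO and NMO+CL against Normal. Csf3r ran lower in both of the latter (-0.97 and -0.82), and the other 1 and 3 ran higher. The most abundant of the list, S100a8 and S100a9, had log2 fold changes of 1.96 (adjusted p = 0.127) and 2.03 (adjusted p = 0.133) in NMO+CL against Normal. Lymphocyte genes, of which 2 of 8 were tested, summed to 4.37 to 21.6 CPM over the 9 libraries, with Cd3e at 0 in each. Astrocyte and oligodendrocyte genes summed to 223 to 274 CPM in Normal, 134 to 169 in NMO and 98.3 to 172 in NMO+CL. Slc1a3, a glutamate transporter of astrocytes, made up most of that sum, with 176 ± 30.8 CPM in Normal (SD, n = 3), while the astrocyte genes Gfap and Aldh1l1 were at 0 in every Normal library. Slc1a3 fell in NMO+CL against Normal by 0.88 on the log2 scale (adjusted p = 0.0270, called in 11 of 16 alternative settings), and the other 4 tested genes of the list were not called. The median of the 5 was -0.88 there, with 1 of 5 above 0, beside -0.01 over all tested genes. Of 8 tested endothelial genes 1 was called, beside 0.529% of all genes called higher in NMO+CL against NMO and 4.79% against Normal. The list's median log2 fold change was -0.05 and -0.06 in these comparisons, beside -0.01 over all tested genes, with 4 of 8 above 0 in each. Kdr, a receptor for VEGF, was the gene that rose, in NMO+CL against NMO (log2 fold change 1.86, adjusted p = 0.0272) and against Normal (1.37, adjusted p = 0.0418), with 187 to 269 counts in NMO+CL beside 52 to 106 in the other groups. Its calls held in 12 and 10 of 16 settings.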
